A study of Mus musculus with 8 samples.

Results

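The genes described are the interleukin-6 (IL-6) family set of 9 genes, made up of the cytokines *Il6*, *Lif*, *Il11* and *Clcf1*, the receptor chains *Il6st*, *Il6ra* and *Osmr*, the transcription factor *Stat3* and the feedback inhibitor *Socs3*. They were picked by gene symbol out of 18957 genes, and all 9 had a row in each of the 8 libraries. RNA was taken from living cells that carried PDGFRA and lacked hematopoietic lineage antigens, sorted by FACS after collagenase digestion of ventricles from C57BL/6 (mixed) mice at 3 to 4 weeks of age. The labels give 4 WT and 4 *Pdgfra-Cre:LmnaF/F* libraries. The WT mice were littermates with wild-type alleles only, whereas the *Pdgfra-Cre:LmnaF/F* mice had exon 2 of *Lmna*, the gene of lamin A/C, floxed on both alleles and carried the *Pdgfra-Cre* BAC transgene. Because no WT library carried the transgene, the loss of *Lmna* and the transgene itself cannot be told apart. The *Pdgfra* promoter drives Cre in most but not all cardiac fibroblasts, in other mesenchymal cells and in some cardiac myocytes. The labels do not say which libraries came from separate mice, and the p-values therefore measure the spread between libraries only.

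Cytokines of the IL-6 family signal through the shared chain gp130, which *Il6st* encodes, together with a further chain that depends on the ligand. *Il6ra* encodes the receptor of IL-6, *Osmr* that of oncostatin M, *Lifr* that of leukemia inhibitory factor and *Il11ra1* that of IL-11. Engaged receptors activate Janus kinases, which phosphorylate STAT3, and STAT3 induces *Socs3*, whose product binds gp130 and ends the signal. Cardiac fibroblasts are known as producers of IL-6 and IL-11 and as cells that respond to oncostatin M.

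Total counts lay between 2080555 in WT replicate 2 and 12502949 in *Pdgfra-Cre:LmnaF/F* replicate 4, and levels are given as CPM after TMM normalization, listed in the order of replicates 1 to 4 wherever 4 values follow each other. A single count was worth 0.503 CPM in WT replicate 2 and between 0.0833 and 0.160 CPM in the other libraries. *Lmna* lay between 274 and 483 CPM in the WT and between 90.4 and 130 CPM in the *Pdgfra-Cre:LmnaF/F* libraries, a log2 difference of -1.72 with an adjusted p of 0.00492 by edgeR. The sorted identity was checked with 8 fibroblast markers, whose summed level ranged from 46719 to 54098 CPM in the WT and from 40365 to 56015 CPM in the *Pdgfra-Cre:LmnaF/F* libraries, with *Pdgfra* itself at 1275 CPM or more everywhere. Some libraries stood apart. *Pdgfra-Cre:LmnaF/F* replicate 4 had 5680 CPM summed over 7 cardiomyocyte markers and 414 CPM over 9 leukocyte markers, against at most 1020 and 170 CPM in the other libraries. Reads of 4 Y-linked genes summed to at least 143 CPM in WT replicates 1, 2 and 4 and in *Pdgfra-Cre:LmnaF/F* replicate 4, and to at most 1.96 CPM in the other 4 libraries. In RNA of a cell population, a change in the number of cells of a type and a change in RNA per cell cannot be told apart.

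Of the 9 genes, *Il6*, *Osmr*, *Stat3* and *Socs3* were higher in every *Pdgfra-Cre:LmnaF/F* library than in every WT library, *Il11* was lower in every one, and the groups overlapped for *Lif*, *Clcf1*, *Il6st* and *Il6ra*. Among all 13036 genes tested, 4.06% lay entirely above the WT and 3.97% entirely below it. *Il11* had too few counts to enter the test across genes, so these shares do not cover it. *Il6* entered the test only through its counts in the *Pdgfra-Cre:LmnaF/F* libraries. No IL-6 family gene passed an adjusted p of 0.05 by the quasi-likelihood test of edgeR without covariates and with its default filter on low counts, where 0.407% of all genes tested did. With no filter the same test called *Il6* and *Socs3* (1.45% of all genes called). Leaving *Il6* aside, since its entry rests on the genotype in which it was high, *Socs3*, *Osmr*, *Il6ra* and *Stat3* had an unadjusted p under 0.05, all 4 higher in *Pdgfra-Cre:LmnaF/F*, next to 6.24% of all genes in that direction. DESeq2, after the same filter, called *Osmr* and *Socs3*, with 2.58% of all genes called, and *Il6*, whose entry carries the same limit. Limma-voom called *Osmr* and *Socs3*, with 1.06% called. The median log2 difference was 0.56 over the 7 tested genes other than *Il6* and 0.65 with it, and that of all genes tested was 0.02.

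**Figure D1:**
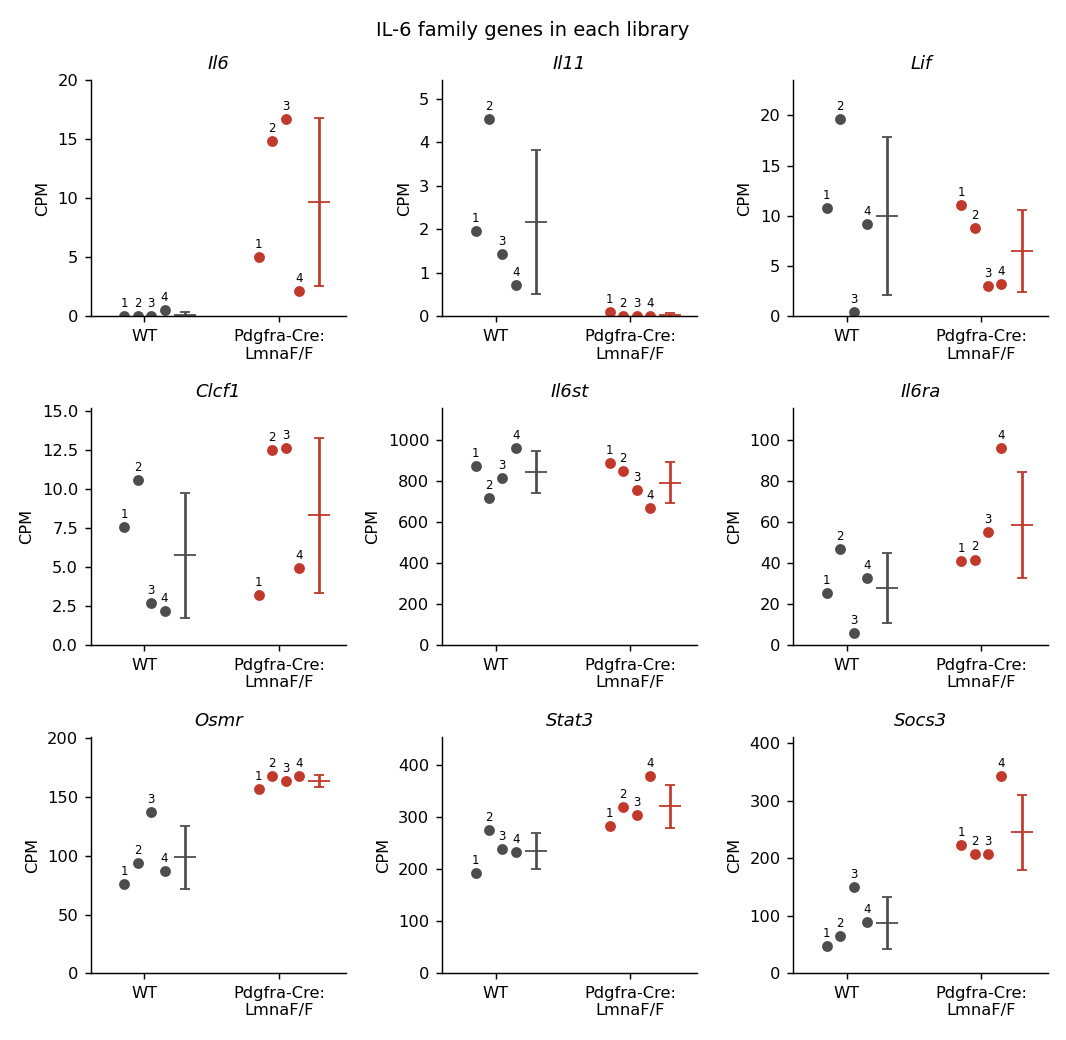
Level of each IL-6 family gene in CPM (vertical axis, from 0) in the 4 WT (grey) and the 4 *Pdgfra-Cre:LmnaF/F* libraries (red), numbered by replicate, with the mean and SD of each group drawn beside them. *Il6*, *Osmr*, *Stat3* and *Socs3* show no overlap with the *Pdgfra-Cre:LmnaF/F* libraries on top, *Il11* shows none with the WT libraries on top, and the other genes overlap.

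*Il6* (ENSMUSG00000025746.11, chr5:30013114-30019981 on the forward strand of mm10) encodes the cytokine that gives the family its name. It had 0 counts in WT replicates 1, 2 and 3 and 5 counts in WT replicate 4, which is 0.518 CPM. In *Pdgfra-Cre:LmnaF/F* it had 49, 142, 145 and 26 counts, or 5.07, 14.8, 16.7 and 2.17 CPM. The groups did not overlap, and the *Pdgfra-Cre:LmnaF/F* libraries differed among themselves, replicates 2 and 3 lying well above replicates 1 and 4. The floor of 3 counts corresponds to between 0.280 and 1.51 CPM in the WT libraries, so the lowest *Pdgfra-Cre:LmnaF/F* level stood above the floor of each WT library. Over the pooled counts of each genotype, 5 against 362, the depth-adjusted ratio was 51.9, with a 95% interval of 22.0 to 161 that covers counting error only. The edgeR log2 difference of *Il6* was 5.78 ± 1.27 (SE; adjusted p = 0.0709). These p-values are a description, because *Il6* entered the test through the libraries in which it was high. With 1 library left out the adjusted p of *Il6* lay between 0.0364 and 0.224, under 0.05 in 1 of 8 fits, that without *Pdgfra-Cre:LmnaF/F* replicate 4 (0.565% of all genes called), and the size fitted with WT replicate 4 left out (9.35) is against a group without counts and bounds nothing.

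*Il11* (ENSMUSG00000004371.15, chr7:4772373-4782859, reverse strand), a cytokine that cardiac fibroblasts secrete under profibrotic stimulation, was higher in the WT. Its counts were 21, 9, 9 and 7 in WT replicates 1 to 4 and 1, 0, 0 and 0 in *Pdgfra-Cre:LmnaF/F* replicates 1 to 4. As levels these were 1.96, 4.53, 1.44 and 0.725 CPM in the WT and 0.103 CPM in *Pdgfra-Cre:LmnaF/F* replicate 1. Each WT library thus lay above each *Pdgfra-Cre:LmnaF/F* library, although 1 of the WT levels rested on 7 counts. An exact two-sided permutation test of this 1 gene gave p = 0.0286, the smallest value that 4 libraries against 4 allow. The pooled counts, 46 against 1, gave a ratio of WT over *Pdgfra-Cre:LmnaF/F* of 64.2 with a 95% counting interval of 11.0 to 2591. With no filter on low counts, edgeR gave *Il11* a log2 difference of -5.74 ± 2.43 (SE) and an adjusted p of 0.362, and where leaving out 1 library let it pass the filter its adjusted p lay between 0.216 and 0.397. All these fits are a description too. In those with 1 library left out, *Il11* passed the filter through the WT libraries in which it was high.

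The proximal promoters of both cytokine genes are printed because these are the genes with almost no counts in 1 of the genotypes. The 250 bases before the RefSeq start of *Il6* (GRCm38.p6, chr5:30012864-30013113, forward strand) are given 5′ to 3′, with an AP-1 match, a C/EBP match and an NF-kB match in capitals. For *Il11*, RefSeq has more than 1 start, and the 250 bases shown (chr7:4778142-4778391, reverse strand) precede the start that lies 4718 bases inside the GENCODE gene, outside its annotated exons, with an AP-1 match in capitals. The window at the outer *Il11* start held no match to any motif searched.
Il6: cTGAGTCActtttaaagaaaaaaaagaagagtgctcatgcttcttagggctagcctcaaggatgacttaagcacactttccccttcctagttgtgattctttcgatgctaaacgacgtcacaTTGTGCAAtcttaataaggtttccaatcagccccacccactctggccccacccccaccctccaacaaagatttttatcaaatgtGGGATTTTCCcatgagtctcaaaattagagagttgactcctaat
Il11: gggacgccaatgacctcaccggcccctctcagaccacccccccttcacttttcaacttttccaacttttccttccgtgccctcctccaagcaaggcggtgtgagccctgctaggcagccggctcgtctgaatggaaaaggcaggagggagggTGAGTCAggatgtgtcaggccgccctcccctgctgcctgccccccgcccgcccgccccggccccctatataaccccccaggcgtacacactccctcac
The motifs searched on both strands, in windows of 250 bases before to 50 bases after each start, were TTCNNNGAA for STAT factors, GGGA followed by any base and TTTCC for NF-kB, TGANTCA for AP-1, TTGNGCAA for C/EBP and TGACGTCA for the cyclic AMP response element. They occurred in 8.3%, 0.411%, 7.81%, 2.94% and 1.79% of 32851 RefSeq windows. In *Il6* the AP-1 match began 249 bases, the C/EBP match 128 bases and the NF-kB match 44 bases before the start. The AP-1 match of *Il11* began 98 bases before its start, and *Lif* had an AP-1 match 228 bases before its start. None of these matches overlapped another, and a match describes letters, not a bound site.

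*Lif* (ENSMUSG00000034394.14, chr11:4257557-4272514, forward strand) encodes leukemia inhibitory factor. It had 10.7, 19.6, 0.479 and 9.22 CPM in the WT and 11.1, 8.76, 2.99 and 3.25 CPM in *Pdgfra-Cre:LmnaF/F*. The groups overlapped, and WT replicate 3, with 3 counts, was the lowest of all libraries. The log2 difference of *Lif* was -0.59 with a 95% interval of -2.31 to 1.12 (edgeR, adjusted p = 0.849), and its sign was not stable across settings. Among libraries with Y-linked reads the WT had 9.22 to 19.6 CPM and the *Pdgfra-Cre:LmnaF/F* library 3.25 CPM, while among those without such reads the WT library had 0.479 CPM and the *Pdgfra-Cre:LmnaF/F* libraries 2.99 to 11.1 CPM. The difference between these directions was not tested, since each rests on a single library of 1 genotype.

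*Clcf1* (ENSMUSG00000040663.9, chr19:4214238-4223490, forward strand) encodes cardiotrophin-like cytokine factor. It had 7.57, 10.6, 2.72 and 2.17 CPM in the WT and 3.21, 12.5, 12.7 and 4.92 CPM in the *Pdgfra-Cre:LmnaF/F* libraries. Both groups held low and high libraries, and the log2 difference was 0.56 with a 95% interval of -0.96 to 2.09 (edgeR, adjusted p = 0.837). The gene is overlapped on its own strand by the annotated locus AC109138.7, so its reads are uncertain. Of 8 other ligand genes of the family, 7 were listed. *Osm*, the gene of oncostatin M, had 4 counts in WT replicate 4, 1 count in *Pdgfra-Cre:LmnaF/F* replicate 4 and 0 counts in the other 6 libraries, which is at or next to the floor of 3 counts.

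*Il6st* (ENSMUSG00000021756.12, chr13:112464070-112510086, forward strand), which encodes gp130, was the most abundant member per kilobase of exon in the WT. Its levels were 876, 719, 814 and 964 CPM in the WT and 891, 851, 759 and 669 CPM in *Pdgfra-Cre:LmnaF/F*. The groups overlapped almost wholly, and the 95% interval of the log2 difference ran from -0.50 to 0.32 around -0.09 (edgeR, adjusted p = 0.912). That interval leaves out a doubling or a halving of the shared receptor chain.

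*Osmr* (ENSMUSG00000022146.12, chr15:6813577-6874969, reverse strand), a receptor chain for oncostatin M, had 76.2, 94.1, 137 and 87.1 CPM in the WT. In *Pdgfra-Cre:LmnaF/F* it had 157, 168, 163 and 168 CPM. These 4 libraries lay close to one another (164 ± 5.01 CPM, SD, n = 4) and above every WT library (98.6 ± 26.7 CPM, SD, n = 4), of which WT replicate 3 came nearest. The log2 difference of *Osmr* was 0.73 ± 0.21 (SE; adjusted p = 0.160 by edgeR). DESeq2 gave an adjusted p of 0.0483 and limma-voom one of 0.0257, while the 8 edgeR settings left it above the threshold.

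*Il6ra* (ENSMUSG00000027947.11, chr3:89864059-89913196, reverse strand), the ligand-binding chain for IL-6, had 25.5, 46.8, 5.59 and 32.4 CPM in the WT and 40.9, 41.6, 54.9 and 96.1 CPM in the *Pdgfra-Cre:LmnaF/F* libraries. WT replicate 2 lay above *Pdgfra-Cre:LmnaF/F* replicates 1 and 2, so the groups overlapped. The log2 difference was 1.11 ± 0.47 (SE; adjusted p = 0.365 by edgeR). Within the libraries with Y-linked reads *Il6ra* had 25.5 to 46.8 CPM in the WT against 96.1 CPM, and within those without them 5.59 CPM against 40.9 to 54.9 CPM. With summed Y-linked expression as a covariate, the log2 difference of *Il6ra* was 2.02 with an adjusted p of 0.0240 by edgeR, a setting that called 0.913% of all genes. Leukocytes express *Il6ra* as well, and the leukocyte markers were highest in the same library as *Il6ra*, *Pdgfra-Cre:LmnaF/F* replicate 4, but their part in its level was not tested. Without that library the log2 difference was 0.76 (adjusted p = 0.601). An annotated gene on the opposite strand, *Gm42809*, overlaps *Il6ra*.

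Of 6 further receptor genes of the family, 5 were listed and 4 tested, and none passed the adjusted threshold in edgeR without covariates and with the default filter. *Lifr*, which encodes the chain that pairs with gp130 for leukemia inhibitory factor, had 108 to 159 CPM in the WT and 161 to 404 CPM in the *Pdgfra-Cre:LmnaF/F* libraries without overlap, a log2 difference of 0.87 ± 0.28 (SE; adjusted p = 0.213). *Pdgfra-Cre:LmnaF/F* replicate 4 held the 404 CPM, and without it the log2 difference of *Lifr* was 0.48 (adjusted p = 0.399), whereas with the Y-linked covariate it was 1.099 and called (adjusted p = 0.0333). *Il27ra*, the IL-27 receptor chain, lay on the other side without overlap, with 22.2 to 35.7 CPM in the WT and 7.83 to 20.96 CPM in *Pdgfra-Cre:LmnaF/F* (log2 difference -0.92 ± 0.35 SE, adjusted p = 0.305). *Il11ra1*, the receptor of IL-11, overlapped between the genotypes, with 57.9 to 122 CPM in the WT and 66.0 to 124 CPM in *Pdgfra-Cre:LmnaF/F* and a log2 difference of 0.32 (95% interval -0.25 to 0.89). The annotation places other genes on both strands inside *Il11ra1*, and its reads are uncertain for that reason.

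Levels of different genes were compared per kilobase of annotated exon. In the WT the order, as CPM per kilobase, was *Il6st* (76.0), *Socs3* (30.4), *Stat3* (24.7), *Osmr* (8.14), *Il6ra* (3.19), *Lif* (2.30), *Clcf1* (1.51), *Il11* (1.04) and *Il6* (0.0533). Neighbours whose WT ranges overlapped were *Socs3* and *Stat3*, *Il6ra* and *Lif*, *Lif* and *Clcf1*, and *Clcf1* and *Il11*. In the *Pdgfra-Cre:LmnaF/F* libraries *Socs3* (84.9 CPM per kilobase) and *Il6st* (71.4) came first with overlapping ranges, followed by *Stat3* (33.7), *Osmr* (13.5), *Il6ra* (6.75), *Il6* (3.99), *Clcf1* (2.19), *Lif* (1.498) and *Il11* (0.0124). Other neighbours that overlapped in this genotype were *Il6ra* and *Il6*, *Il6* and *Clcf1*, and *Clcf1* and *Lif*. *Il6* thus had the lowest mean of the 9 in the WT, with no overlap with *Il11* above it, and *Il11* the lowest in *Pdgfra-Cre:LmnaF/F*, with no overlap with *Lif* above it. Among the receptors other than *Il6st* in the WT, *Il11ra1* (17.3 CPM per kilobase), *Lifr* (12.02) and *Il27ra* (8.54) lay above *Osmr* and *Il6ra* in their means. The WT ranges of *Lifr* (10.01 to 14.8) and *Il27ra* (6.36 to 10.2) overlapped that of *Osmr* (6.29 to 11.3).

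**Figure D2:**
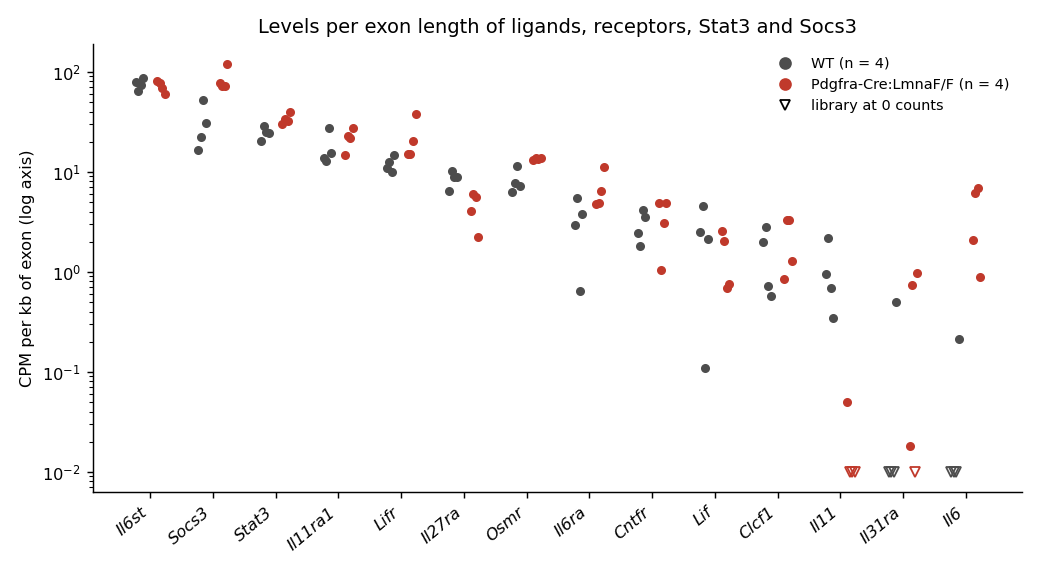
CPM per kilobase of annotated exon (vertical log axis) of ligand, receptor, *Stat3* and *Socs3* genes in each WT (grey) and *Pdgfra-Cre:LmnaF/F* library (red), ordered by the WT mean, with open triangles at the bottom for libraries with 0 counts. *Il6st* leads in the WT at 76.0, *Il6* has 0 counts in 3 WT libraries and *Il11* in 3 *Pdgfra-Cre:LmnaF/F* libraries.

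*Stat3* (ENSMUSG00000004040.16, chr11:100885098-100939540, reverse strand), the transcription factor that gp130 receptors activate, had 193, 276, 239 and 232 CPM in the WT and 284, 319, 303 and 379 CPM in *Pdgfra-Cre:LmnaF/F*. The groups did not overlap, but WT replicate 2 lay only just under the lowest *Pdgfra-Cre:LmnaF/F* library. The log2 difference of *Stat3* was 0.45 ± 0.19 (SE; adjusted p = 0.370 by edgeR). The end of *Stat3* overlaps *Stat5a* on the opposite strand, and whether the counting used strand is not given in the sources used here. *Stat5a* differed in the opposite direction, by -0.60 ± 0.33 on the log2 scale (SE; adjusted p = 0.525). The phosphorylation of STAT3, which sets its activity, was not measured by these libraries.

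*Socs3* (ENSMUSG00000053113.3, chr11:117966079-117970047, reverse strand) encodes the suppressor of cytokine signaling that acts on gp130. It had 47.7, 64.4, 151 and 89.3 CPM in the WT, a mean of 88.0 ± 45.04 CPM (SD, n = 4). In *Pdgfra-Cre:LmnaF/F* it had 223, 208, 207 and 343 CPM, a mean of 245 ± 65.4 CPM (SD, n = 4). WT replicate 3 was the highest WT library and *Pdgfra-Cre:LmnaF/F* replicate 4 stood above its own group, and the groups did not overlap. The log2 difference of *Socs3* was 1.48 ± 0.31 (SE; adjusted p = 0.0627 by edgeR), or 2.78-fold. It stayed between 1.44 and 1.65 in 10 other settings that kept all libraries, and 8 of these called it, at adjusted p-values from 0.000400 to 0.0491. The share of all genes called was 0.407% with RLE and 0.384% with upper-quartile factors, which did not call *Socs3*, and 1.45% with no filter, 0.586% with at least 10 counts in every library, 0.621% with 1 RUVr factor, 0.646% after thinning and 0.276% with a replicate block. With 1 library left out it was called in 1 of 8 fits, that without WT replicate 3 (1.86, adjusted p = 0.0143, with 0.358% of all genes called), and the other 7 gave adjusted p-values from 0.0767 to 0.183. The call was not made without both WT replicate 2 and *Pdgfra-Cre:LmnaF/F* replicate 4, where the log2 difference was 1.15 (adjusted p = 0.246, with 0.283% of all genes called).

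A stretch of the *Socs3* promoter is shown because its letters match the STAT motif and STAT3 is known to induce this gene. A stretch of 29 bases on the reverse strand (GRCm38.p6, chr11:117969502-117969530) holds the match, in capitals, which begins 154 bases before the RefSeq start. The outermost GENCODE start lies 681 bases upstream of the RefSeq start, and none of the 29 bases lies in a GENCODE exon.
Socs3: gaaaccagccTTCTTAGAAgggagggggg
No other IL-6 family gene with a RefSeq window had a STAT match in it, and *Osmr* had an AP-1 match just inside its start. *Clcf1* had no entry.

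Within the libraries that had Y-linked reads, *Socs3* stood at 47.7 to 89.3 CPM in the WT against 343 CPM, and within those without them at 151 CPM against 207 to 223 CPM. The same held for *Osmr*, with 76.2 to 94.1 CPM against 168 CPM and 137 CPM against 157 to 168 CPM, and for *Stat3*, with 193 to 276 CPM against 379 CPM and 239 CPM against 284 to 319 CPM. For *Il6* the values were 0 to 0.518 CPM against 2.17 CPM with Y-linked reads, and 0 CPM against 5.07 to 16.7 CPM without them. The direction of these 4 genes was therefore the same within each kind of library, where each comparison has a single library on 1 side and no test.

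**Figure D3:**
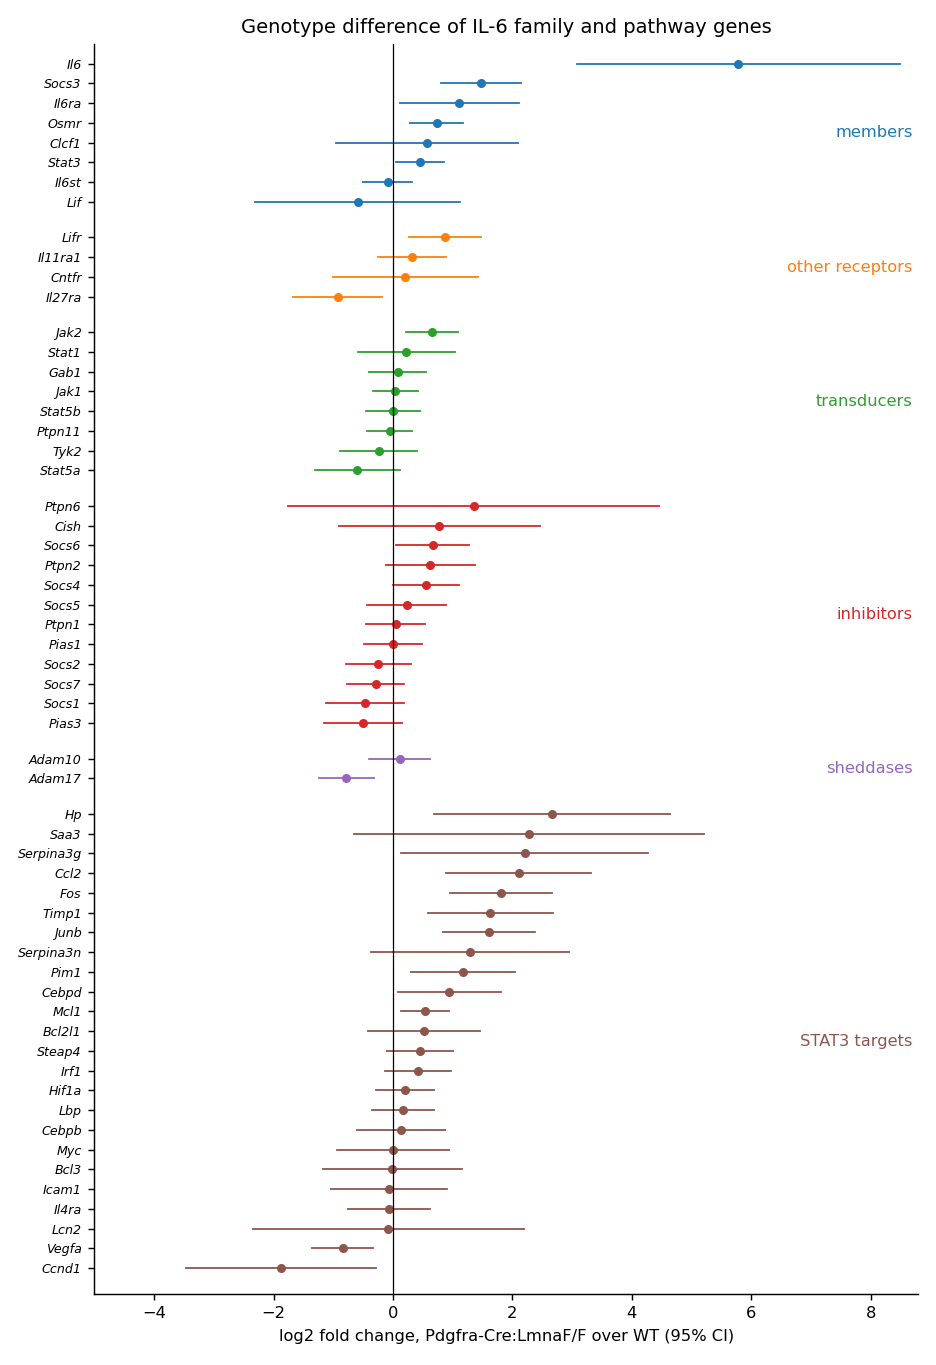
Log2 difference between *Pdgfra-Cre:LmnaF/F* and WT (horizontal axis, positive where *Pdgfra-Cre:LmnaF/F* was higher) with its 95% interval for each tested IL-6 family gene and the tested genes of the lists of further receptors, transducers, inhibitors, sheddases and STAT3 target genes, grouped by role. *Il6* lies farthest right at 5.78, *Socs3* at 1.48, and *Il6st* at -0.09 with an interval across 0.

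The other genes of the pathway were taken from lists of further ligands and receptors, transducers, inhibitors, sheddases and STAT3 target genes, 60 genes in all, of which 58 were listed and 51 tested. None passed the adjusted threshold in edgeR without covariates and with the default filter, which 0.407% of all genes passed, while 14 were higher and 4 lower at an unadjusted p under 0.05, next to 6.24% and 5.65% of all genes in these directions. Their median log2 difference was 0.21. DESeq2 called 5 of them (*Fos*, *Junb*, *Timp1*, *Vegfa* and *Adam17*), with 2.58% of all genes called, limma-voom 2 (*Fos* and *Junb*), with 1.06% called, and edgeR with no filter 7 (*Fos*, *Junb*, *Timp1*, *Vegfa*, *Pim1*, *Ccnd1* and *Ccl2*), with 1.45% called.

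Among 8 transducers, *Jak2*, a kinase bound to gp130, had the lowest p. It had 47.4, 47.3, 54.2 and 56.2 CPM in the WT and 77.8, 96.0, 80.6 and 69.2 CPM in the *Pdgfra-Cre:LmnaF/F* libraries, without overlap, a log2 difference of 0.66 ± 0.20 (SE; edgeR adjusted p = 0.194). *Tyk2*, another kinase of this family, differed by -0.24 (95% interval -0.89 to 0.41). The median of the transducers was 0.02.

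Of 12 inhibitors of the pathway besides *Socs3*, 7 were above 0 and 5 below, with a median log2 difference of 0.14 next to 0.02 for all genes tested. *Socs6* (0.66 ± 0.29 SE, adjusted p = 0.379), *Socs4* (0.56 ± 0.26 SE, adjusted p = 0.411) and *Ptpn2* (0.63 ± 0.35 SE, adjusted p = 0.521), a phosphatase of STAT proteins, had the lowest p, and in each the genotypes overlapped.

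The sheddases *Adam10* and *Adam17* release the ectodomain of the IL-6 receptor. *Adam17* had 203, 192, 310 and 221 CPM in the WT and 141, 167, 126 and 105 CPM in the *Pdgfra-Cre:LmnaF/F* libraries. It was lower in every *Pdgfra-Cre:LmnaF/F* library, with a log2 difference of -0.78 ± 0.22 (SE; edgeR adjusted p = 0.147). DESeq2 (2.58% of all genes called) and edgeR with the Y-linked covariate (0.913%) called *Adam17*. *Adam10* overlapped between the genotypes at 57.0 to 66.4 CPM in the WT and 53.9 to 98.8 CPM in *Pdgfra-Cre:LmnaF/F*, with a log2 difference of 0.11 (95% interval -0.39 to 0.62).

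All 24 STAT3 target genes of the list were tested. None was called by edgeR with the default filter, all libraries and no covariates, next to 0.407% of all genes, and 18 were above 0 and 6 below. At an unadjusted p under 0.05, 9 were higher and 2 lower, next to 6.24% and 5.65% of all genes, and the median log2 difference was 0.49, next to 0.02 over all genes tested. *Fos*, an AP-1 subunit, had 542, 145, 922 and 465 CPM in the WT and 1438, 1831, 2472 and 1519 CPM in the *Pdgfra-Cre:LmnaF/F* libraries, a log2 difference of 1.80 ± 0.40 (SE; adjusted p = 0.0757). *Junb*, its partner, had 420, 192, 967 and 493 CPM and 1401, 1396, 1918 and 1638 CPM in the same order, and differed by 1.61 ± 0.36 (SE; adjusted p = 0.0791). Neither overlapped between the genotypes. Both were called by edgeR with 1 RUVr factor (0.621% of all genes called) and with a replicate block (0.276%). Without WT replicate 3 (0.358%) they were called too. *Ccl2*, a chemokine for monocytes, had 28.6, 10.1, 28.4 and 32.2 CPM in the WT and 212, 148, 62.9 and 15.6 CPM in *Pdgfra-Cre:LmnaF/F*, where replicate 4 lay inside the WT range (log2 difference 2.10 ± 0.57 SE, adjusted p = 0.135). Without *Pdgfra-Cre:LmnaF/F* replicate 4, *Ccl2* was called (2.46, adjusted p = 0.00929), and with the Y-linked covariate its log2 difference was 0.84 (adjusted p = 0.628).

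*Fos*, *Junb*, *Cebpb* and *Cebpd* are also on a list of 28 genes that respond to enzymatic dissociation of tissue, and *Socs3* and *Il6* are themselves known as rapidly induced genes. That list summed to 6635, 5098, 8529 and 5783 CPM in the WT and to 10690, 12340, 16300 and 12180 CPM in *Pdgfra-Cre:LmnaF/F*. The groups did not overlap (exact two-sided permutation test, p = 0.0286, the smallest it can give). In the test across genes 3 of the 28 rose, *Ier3*, *Btg2* and *Nr4a1*, named here after their values were seen, next to 0.407% of all genes called, and 16 were higher at an unadjusted p under 0.05, next to 6.24% of all genes. Within the WT, replicate 3 was highest both for this sum and for *Socs3*. *Il6* had 0 counts in WT replicate 3, and its only WT counts were in replicate 4. Within *Pdgfra-Cre:LmnaF/F*, the sums ran from replicate 3 through 2 and 4 to 1. *Il6* ran from replicate 3 (16.7 CPM) through 2 (14.8 CPM) and 1 (5.07 CPM) to 4 (2.17 CPM). *Socs3* was near 207 CPM in replicates 2 and 3 and highest in replicate 4. The part of the dissociation response in the values of *Socs3* and *Il6* was not tested.

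Summed endothelial markers were lower in every *Pdgfra-Cre:LmnaF/F* library, at 406 to 494 CPM against 531 to 716 CPM in the WT (exact two-sided permutation p = 0.0286, the smallest possible). *Tek*, the most abundant of the 6 genes, and *Cdh5* did not overlap on their own (log2 differences -0.59 and -1.17, neither called), 5 of the 6 were below 0, and without *Tek* the sums overlapped, at 80.7 to 165 CPM against 154 to 228 CPM in the WT. Leukocyte markers ranged from 40.3 to 170 CPM in the WT and from 51.7 to 414 CPM in *Pdgfra-Cre:LmnaF/F*, and cardiomyocyte markers from 734 to 1020 CPM and from 296 to 5680 CPM. *Pdgfra-Cre:LmnaF/F* replicate 4, the highest library for both lists, was also the highest of all libraries for *Socs3*, *Stat3* and *Il6ra* and the lowest of its group for *Il6*. Without it, the log2 difference was 1.27 for *Socs3* (adjusted p = 0.0858) and 6.10 for *Il6* (adjusted p = 0.0364). Summed levels of the other lists (mural, mesothelial, red cell and Schwann cell markers) overlapped between the genotypes.

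**Figure D4:**
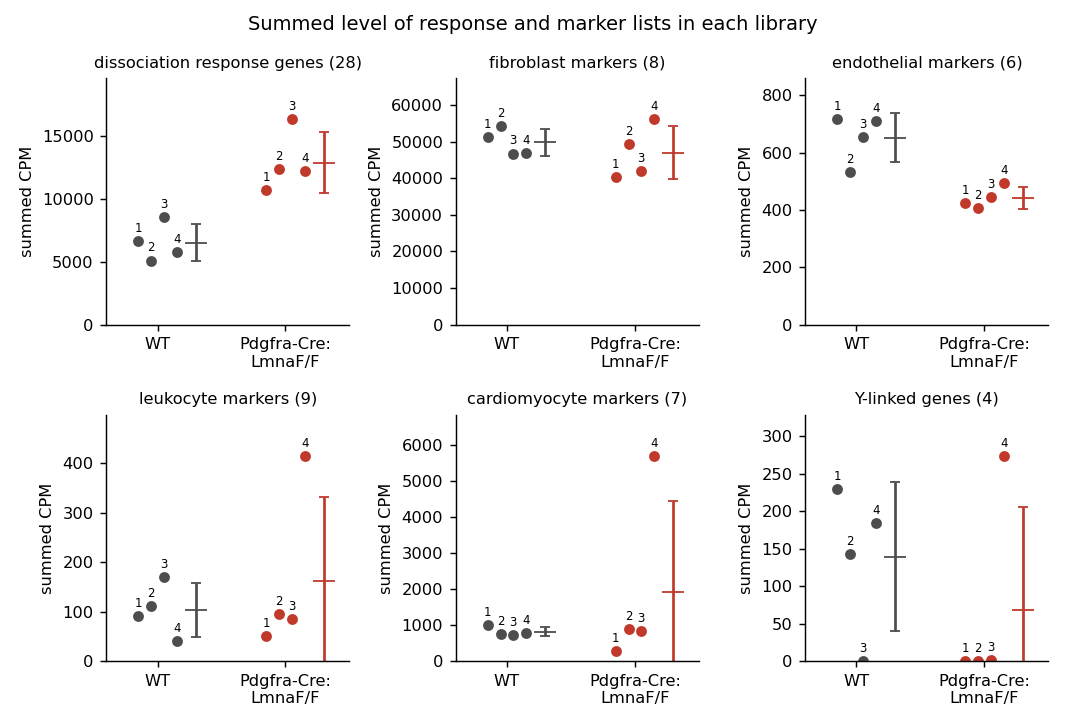
Summed CPM (vertical axis, from 0) of the dissociation response genes, of fibroblast, endothelial, leukocyte and cardiomyocyte markers and of Y-linked genes in each library, with replicate numbers, group means and SD (bars cut at 0). The dissociation sums of the 4 *Pdgfra-Cre:LmnaF/F* libraries, from 10690 CPM up, lie above all WT sums, and *Pdgfra-Cre:LmnaF/F* replicate 4 stands apart in the leukocyte and cardiomyocyte panels.

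The genes whose pattern over the 8 libraries was most like that of *Socs3* were found by the root mean square difference of log2 CPM, centred on each gene, among all genes tested. *Gadd45b*, which encodes a protein of the response to stress and DNA damage, came first at 0.23, where *Socs3* itself had an SD of 0.99 over the libraries. The log2 difference of *Gadd45b* was 1.74 ± 0.30 (SE), a description, since a gene chosen for likeness to *Socs3* follows its separation of the genotypes. *Proz* (0.31), *Rpl9-ps6* (0.33) and *Snrpa1*, a spliceosome gene (0.37), were also near. *Rpl9-ps6* is a ribosomal protein pseudogene whose reads may belong to other copies.

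For *Il6* the nearest gene was *Ch25h*, the gene of cholesterol 25-hydroxylase, at 0.63 against an SD of 2.66 of *Il6*, and its log2 difference, a description for the same reason, was 4.50 ± 0.90 (SE). *Osmr* was nearest to *Gem*, a small GTPase gene, at 0.10, with a log2 difference of 0.63 ± 0.20 for *Gem* (SE). Other nearest genes were *Bcas2* for *Stat3* (0.09), *Slc44a1* for *Il6st* (0.07) and *Grin2d* for *Lif* (0.42). Distances are smaller for genes that vary little, and they describe likeness over 8 libraries that hold both genotypes.

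**Figure D5:**
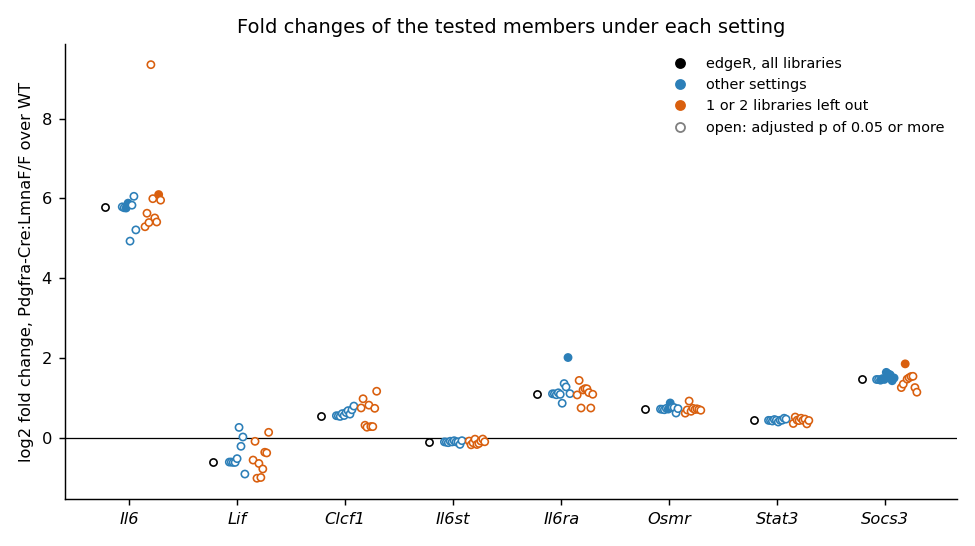
Log2 difference between *Pdgfra-Cre:LmnaF/F* and WT (vertical axis) of the 8 tested IL-6 family genes in edgeR with all libraries (black), in other settings (blue) and with 1 or 2 libraries left out (orange), filled where the adjusted p was under 0.05. *Socs3* is filled in 8 of the 10 other settings and *Il6* in 2 of 8, *Lif* lies on both sides of 0, and the *Il6* point at 9.35 is a fit against WT libraries without counts.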

How the data were processed

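RNA-Seq of ribosome-depleted, strand-specific libraries (paired-end reads) was analysed. The authors aligned reads to mm10 with HISAT2, annotated them with GENCODE and deposited whole-number featureCounts counts per gene symbol, not scaled for depth; versions and the strand setting are not given in the sources used here, and the RUV normalization and DESeq2 test of the study are not in the counts. Genes with fewer than 4 counts over the 8 libraries are not listed. Groups and replicate numbers came from the labels.

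Counts were tested in R 4.3.3 with edgeR 4.0.16 (TMM, filterByExpr, quasi-likelihood test, genotype only, Benjamini-Hochberg adjustment over 13036 genes, threshold 0.05), after a check on simulated counts. SE is the absolute log2 difference over the square root of F. CPM used the same factors, and log2 CPM a prior count of 2. Exact permutation tests enumerated 70 assignments. Alternatives used DESeq2 1.42.0, limma 3.58.1 (voom with quality weights), other size factors, other filters, 1 RUVr factor, thinning, a Y-linked covariate, a replicate block and libraries left out. Coordinates and exon lengths are from GENCODE M21, which held 18918 of the symbols, and promoters from RefSeq on GRCm38.p6, which held 8 of the 9 genes.

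The genes and lists were chosen with earlier results of these data known, and the motifs after values were seen. Named genes are *Lmna*, the 9 genes, in each pathway list the called genes and the 3 with the lowest p, and the genes nearest in pattern (5 for *Socs3*, 1 for each other); some of these are not reported here. Intervals of pooled-count ratios and floors cover counting error only, while intervals of log2 differences come from the edgeR fit and include the spread between libraries.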

Additional observations from a re-analysis of the deposited data

Results flagged for a closer look

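Dixon's test was applied to 36 groups of 4 libraries (among them the IL-6 family genes and cell type marker lists in each genotype), and 7 groups held a library far from the other 3. By chance about 1 in 20 groups would, a rate that does not apply to the groups of *Il6* and *Il11* below, in which 3 libraries are tied at 0 and the gap is the whole range by construction.

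Among the IL-6 family genes, *Il6* was at 0.518 CPM in WT replicate 4 and at 0 in the other WT libraries, *Il11* was at 0.103 CPM in *Pdgfra-Cre:LmnaF/F* replicate 1 and at 0 in the others of that genotype, and *Socs3* was at 343 CPM in *Pdgfra-Cre:LmnaF/F* replicate 4, where the next library had 223 CPM. The first rests on 5 counts and the second on 1 count.

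Among the marker lists, *Pdgfra-Cre:LmnaF/F* replicate 4 had 414 CPM of leukocyte markers, next to 96.4 CPM, and 5680 CPM of cardiomyocyte markers, next to 886 CPM. Cardiomyocyte markers were at 1020 CPM in WT replicate 1, next to 782 CPM. Red cell markers were at 666 CPM in *Pdgfra-Cre:LmnaF/F* replicate 1, next to 45.01 CPM.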

How the results depend on the processing

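The count of genes called across the whole table was 53. It was 274 with no filter on low counts, 303 with DESeq2, 138 with limma-voom, 81 with 1 RUVr factor and 119 with the Y-linked covariate, and 13 to 76 with 1 library left out. Of the IL-6 family, 0 genes were called at first, 3 with DESeq2 (*Il6*, *Osmr* and *Socs3*), 2 with no filter (*Il6* and *Socs3*), 2 with limma-voom (*Osmr* and *Socs3*), 2 with the Y-linked covariate (*Il6ra* and *Socs3*), 1 (*Socs3*) each with at least 10 counts in every library, RUVr and thinning to the smallest library, and 0 to 1 with 1 library left out (*Socs3* without WT replicate 3, *Il6* without *Pdgfra-Cre:LmnaF/F* replicate 4). With DESeq2 and without *Pdgfra-Cre:LmnaF/F* replicate 4, the call of *Il6* is a description, since it entered through the libraries in which it was high. Of the other pathway genes, 0 were called at first, 7 with no filter, 5 with DESeq2, 2 each with limma-voom, RUVr and the Y-linked covariate, and 0 to 2 with 1 library left out. Chosen after seeing the data, leaving out both WT replicate 2 and *Pdgfra-Cre:LmnaF/F* replicate 4 gave 2 pathway calls (*Fos* and *Ccl2*) and none in the family. The causes were not tested.

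Same-numbered libraries did not deviate together over all tested genes (r between -0.03 and 0.04). Whether the numbers pair the libraries is not settled by this, since differently numbered libraries were not compared. With the replicate number as a block, 36 genes were called, 1 of the family (*Socs3*, adjusted p = 0.0491) and 2 of the pathway. The sign reversed for *Lif* (0.27 with RUVr, 0.033 with the Y-linked covariate, 0.15 with both libraries left out) and for *Adam10* (-0.15 without *Pdgfra-Cre:LmnaF/F* replicate 2, in a range of -0.15 to 0.20 with 1 library left out). WT replicate 2, with 2080555 counts, limits what can be seen of *Il6* in the WT.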
